A study of Mus musculus with 6 samples.

Results

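The transcriptome described here is that of sorted control cones of the adult mouse retina, taken as the 3 control libraries of 6 in the series and as every gene of the deposited table, 9720 in all. Genes were ranked by their mean level over the 3 libraries and by the spread between them, and no contrast with the knockout libraries was made. The level unit is FPKM, sequenced fragments per kilobase of transcript relative to the size of the library. Division by length is meant to let levels of different genes be set beside each other. The lengths used are not stated, so such comparisons are approximate.

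The study compared cones with and without Bmal1, a transcription factor of the circadian clock that is listed in the table under its older symbol Arntl. All control animals had the genotype HRGPcre;Bmal1f/+;Z/EG: HRGPcre expresses Cre recombinase from the human red/green pigment promoter in cones, Bmal1f/+ means 1 floxed and 1 unmodified copy, and Z/EG is a reporter that turns on eGFP after Cre acts. The series text calls the controls wild type, but a cone in which Cre recombines the floxed copy keeps 1 intact Bmal1 copy. Recombination of that copy is not shown by the values used here, so how many of the cones were heterozygous is not known. Cells of dissociated neural retinas were sorted for eGFP, so the libraries stand for cones in which Cre had acted on the reporter. The strain is C57BL/6 with mixed background, the light cycle was 12 h light and 12 h dark, and the age is labelled both as day 60 to 80 and as 2 to 6 months. Each library was made from 100 ng of RNA. Neither the number of animals behind a library nor the hour of collection is in the labels, so the spread between libraries may be technical or biological.

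Cones are the photoreceptors of daylight and colour vision. Light activates a cone opsin, which activates the G protein transducin; transducin activates the phosphodiesterase PDE6, the fall in cyclic GMP closes the cyclic nucleotide-gated channel, and release of glutamate at the ribbon synapse drops. Mouse cones express a short-wavelength opsin (Opn1sw) and a middle-wavelength opsin (Opn1mw), often in the same cell. Rods use a parallel set of proteins, many of them encoded by separate genes. Several steps of the cascade thus have a cone and a rod gene that can be compared.

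Opsin, transducin and arrestin genes of the cone cascade lie at the top of the ranking, and the sequence upstream of the 5 cone markers is shown, with and without the letters counted below. Guca1a, another of the 25 highest genes, is added as a further window that holds them. The sequences are the 150 bases before the gene's start in RefSeq (GRCm38.p6), written along the gene's own strand. They lie at chrX:74127316-74127465 (plus strand) for Opn1mw, chr6:29380514-29380663 (minus) for Opn1sw, chr3:108092916-108093065 (plus) for Gnat2, chrX:100605347-100605496 (plus) for Arr3, chr6:136954373-136954522 (plus) for Pde6h and chr17:47400607-47400756 (minus) for Guca1a. For Opn1sw, Gnat2 and Pde6h the window lies within the gene's span as annotated by GENCODE, since the RefSeq start differs from the end of that span. Capitals mark TAATCC, the core letters bound by the photoreceptor factor CRX, on either strand (GGATTA is its reverse complement), and TATAAA, the letters of a TATA box.
Opn1mw: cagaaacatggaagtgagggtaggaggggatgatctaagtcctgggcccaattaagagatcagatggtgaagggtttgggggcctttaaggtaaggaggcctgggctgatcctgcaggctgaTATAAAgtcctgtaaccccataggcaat
Opn1sw: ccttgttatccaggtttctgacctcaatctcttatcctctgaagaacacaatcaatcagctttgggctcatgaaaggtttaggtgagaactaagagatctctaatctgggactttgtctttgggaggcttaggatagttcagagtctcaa
Gnat2: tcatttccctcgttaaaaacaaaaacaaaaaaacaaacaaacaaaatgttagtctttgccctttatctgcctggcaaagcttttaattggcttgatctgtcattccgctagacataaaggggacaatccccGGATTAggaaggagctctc
Arr3: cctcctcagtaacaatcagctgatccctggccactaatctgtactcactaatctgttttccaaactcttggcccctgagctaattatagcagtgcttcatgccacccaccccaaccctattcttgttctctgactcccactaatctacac
Pde6h: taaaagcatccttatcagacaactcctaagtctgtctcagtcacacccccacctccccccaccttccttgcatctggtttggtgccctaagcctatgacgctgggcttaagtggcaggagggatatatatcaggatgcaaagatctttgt
Guca1a: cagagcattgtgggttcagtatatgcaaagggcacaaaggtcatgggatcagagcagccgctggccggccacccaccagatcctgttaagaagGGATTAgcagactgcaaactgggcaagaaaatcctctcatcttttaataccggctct

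The TATAAA of Opn1mw began 28 bases before the start. The CRX letters began 19 bases before the start in Gnat2 and 57 in Guca1a. Neither set of letters is in the windows of Opn1sw, Arr3 and Pde6h, so 3 of the 5 markers lack both. Over the 250 bases before the start, searched on both strands, TAATCC was found in 12 of the 71 genes (16.9%) among the 100 highest that could be matched to a RefSeq window. The share was 4.55% of the 330 matched genes that followed, down to rank 500, and 5.60% of all 7470 matched genes of the table, against 6.38% of the 27025 windows of RefSeq. The 12 genes were Gnat2, Sag, Rbp3, Guca1a, Rtbdn, Gngt1, Syp, Sv2b, Rpgrip1, Aipl1, Dlg4 and Crx itself, known from photoreceptors or, for Syp, Sv2b and Dlg4, from synapses in general. In the list of cone phototransduction genes 6 of 15 matched members had the letters (Gnat2, Guca1a, Gucy2e, Gnb5, Slc24a4 and Gucy2f). Among rod genes 4 of 10 had them (Sag, Gngt1, Cngb1 and Cnga1), and among photoreceptor transcription factors 3 of 14 (21.4%). The other lists searched had 4 of 32 (12.5%, respiratory complex I), 3 of 25 (12%, ribbon synapse), 2 of 17 (11.8%, outer segment), 3 of 28 (10.7%, proteasome) and 2 of 60 (3.33%, cytosolic ribosomal proteins). The share was thus similar in outer segment, synaptic, complex I and proteasome genes. TATAAA was present in 16.9% of the 100 highest and in 5.80% of all matched genes (12.97% of the windows of RefSeq), while GGGCGG, the GC box, was present in 39.4% of the 100 highest and 60.1% of all (32.9% of the windows of RefSeq). The median GC content of the window was 54.8% in the 100 highest, 60% in all matched genes and 52% in the windows of RefSeq. Between the 100 highest and all matched genes the letters and the base composition thus moved together. The windows of RefSeq had a lower GC content than the 100 highest, but TAATCC was in 6.38% of them against 16.9%. The separate parts of letters and base composition were not tested. A match is a description of letters, not of a bound site.

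The table was dominated by few genes. The 100 highest held 30.5% of the summed FPKM, the 10 highest 13.3%, and 515 genes held 50% of it. A mean of at least 100 FPKM was reached by 103 genes, which is 1.06% of the table, and 6 genes were above 1000 FPKM. In the range of 10 to 100 FPKM there were 2037 genes with 44.5% of the sum, and in the range of 1 to 10 FPKM 6602 genes with 24.1%. Below 1 FPKM on average were 978 genes, which are in the table although they are low in these 3 libraries. The median level over the genes of the table was 3.87 FPKM. Just above the line of 100 FPKM lay Eno2 (100.4 FPKM, a neuronal enolase), Stx3 (100.3, the syntaxin of ribbon synapses) and Gnb1 (100.0, the rod transducin beta subunit), and just below it Map1b (99.3, a microtubule-associated protein). With 1 library left out, the count of genes above the line ran from 88 to 117.

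**Figure D1:**
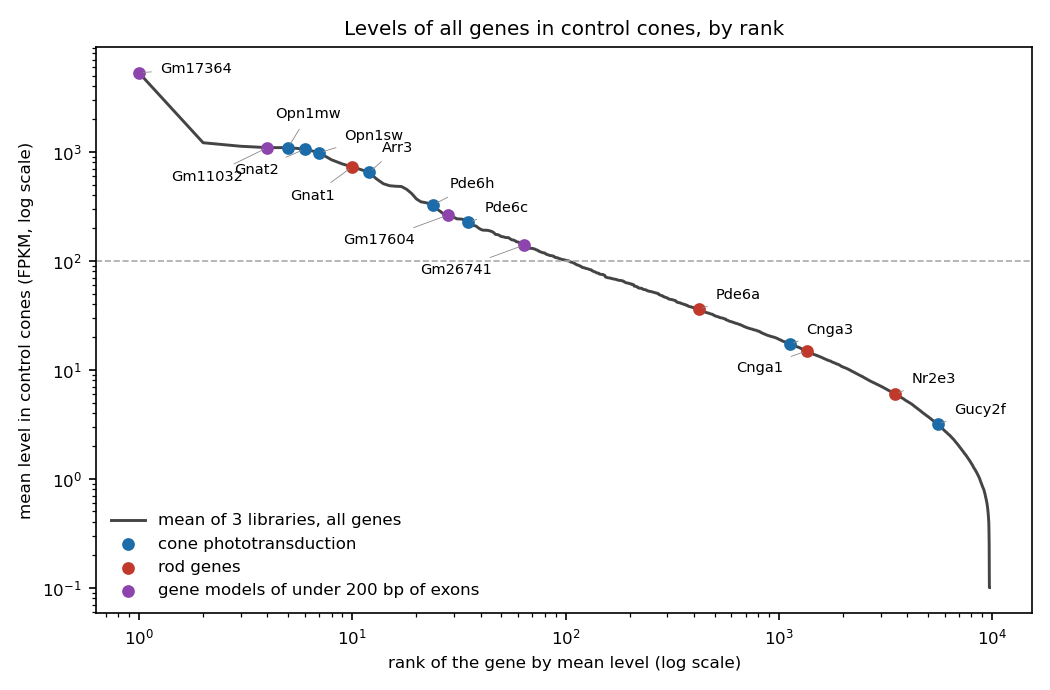
Mean level of every gene of the table over the 3 control libraries (FPKM, log scale) against its rank (log scale), with cone phototransduction genes in blue, rod genes in red and gene models of under 200 bp of exons in purple; the dashed line is 100 FPKM. Gnat2, Opn1sw and Opn1mw lie within the 7 highest genes, at 981 to 1092 FPKM, while Gucy2f, a member of the same list, is at 3.16 FPKM.

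The 3 libraries were not equally alike. On the log2(FPKM + 1) scale across the genes of the table, Pearson's r was 0.963 between controls 2 and 3, 0.902 between controls 1 and 2 and 0.909 between controls 1 and 3; genes are not independent replicates, and the libraries share the cell type. Control 1 had the lowest value of the 3 in 5338 genes (54.9%), and control 3 had the highest in 5442 (56.0%). The sums of FPKM over the table were 84995, 106807 and 128773. Read totals cannot be read from FPKM, so depth is not known. The shift between libraries was not the same for all genes: control 1 was lowest in 34 of 36 genes of respiratory complex I but in 28 of 77 genes of chromatin remodelling. Levels are given below as deposited and, where it matters, after median-ratio scaling, in which each library is divided by the median over genes of its ratio to the gene's geometric mean (factors 0.876, 0.972 and 1.17).

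Of the 25 highest genes, 11 belong to the visual cascade of cones or rods, and 5 carry predicted names. The 5 cone markers were high in every library. Opn1mw (chromosome X, 74127464 to 74150760 in GRCm38 as annotated by GENCODE, 1562 bp of exons) was at 661, 1471 and 1144 FPKM in controls 1, 2 and 3, which is 1092 ± 408 FPKM (SD, n = 3). Opn1sw (chromosome 6, 29376671 to 29388468) was at 735, 1005 and 1202 FPKM, or 981 ± 235 FPKM (SD, n = 3). Control 1 was lowest for both opsins, while the highest library differed, control 2 for Opn1mw and control 3 for Opn1sw. The ratio of Opn1mw to Opn1sw was 0.900 in control 1, 1.46 in control 2 and 0.952 in control 3, so which opsin was higher depended on the library. Exons of Opn1sw overlap those of Calu on the other strand over 397 bp, those of Pde6h overlap Arhgdib over 136 bp and those of Gngt2 overlap Abi3 over 234 bp, also on the other strand; the sources do not state whether counting used strand.

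The transducin genes reached levels like those of the opsins. Gngt2, the cone gamma subunit, had 786, 1745 and 1102 FPKM, a mean of 1211 ± 489 FPKM (SD, n = 3), the highest of any gene with a known retinal role. Gnat2, the cone alpha subunit (chromosome 3, 108092789 to 108101432), had 717, 1086 and 1377 FPKM, a mean of 1060 ± 330 FPKM (SD, n = 3). Gnb3, the beta subunit, was lower and steadier at 218, 231 and 272 FPKM, a mean of 240 ± 28.2 FPKM (SD, n = 3). The 3 subunits work as 1 complex. Every library of Gnb3 was below every library of Gngt2 and Gnat2, whose own ranges overlapped.

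Effector and channel genes were spread over a wider range of levels. Pde6h, the inhibitory subunit of cone PDE6, had 209, 425 and 347 FPKM, and Pde6c, the catalytic subunit, 185, 238 and 251 FPKM. The 2 ranges overlapped, but within each library Pde6h was the higher, at 1.13, 1.79 and 1.38 times Pde6c. The channel subunits that Pde6c acts on through cyclic GMP were much lower: Cngb3 had 30.5, 26.9 and 34.4 FPKM, and Cnga3 had 12.3, 16.2 and 23.0 FPKM. Every library had more Cngb3 than Cnga3. The exchangers that carry calcium out of the outer segment were at a similar level, Slc24a2 at 20.2, 17.7 and 23.8 FPKM and Slc24a4 at 11.9, 9.32 and 15.1 FPKM.

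Genes that restore the dark state or end the response ranged widely, with Arr3 the highest. Arr3, the cone arrestin (chromosome X, 100605497 to 100618493), had 554, 678 and 708 FPKM, a mean of 646 ± 81.5 FPKM (SD, n = 3). Guca1a, an activator of guanylate cyclase, had 306, 462 and 475 FPKM, while its paralogue Guca1b had 77.6, 95.4 and 108 FPKM. The cyclase itself was lower: Gucy2e had 49.8, 44.0 and 53.2 FPKM, and Gucy2f, the second photoreceptor cyclase, had 3.83, 2.08 and 3.58 FPKM, the lowest of the 22 genes of the list. Recoverin (Rcvrn) had a mean of 164 FPKM, phosducin (Pdc) 163 FPKM, the kinase Grk1 62.3 FPKM and the members of the complex that speeds up GTP hydrolysis, Rgs9, Rgs9bp and Gnb5, 95.1, 48.4 and 26.5 FPKM.

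As a list, the 22 cone phototransduction genes were all in the table, 11 of them at 100 FPKM or more, and their median was 129 FPKM against 3.87 FPKM for all genes. They held 6.53% ± 0.94 (SD, n = 3) of the summed FPKM. The list includes the cyclases, their activators, Rcvrn, Pdc, Grk1, Rgs9, Rgs9bp and Gnb5, for which no separate rod gene is listed. The part of rods in their levels was not tested.

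Transcripts known from rods were abundant as well, although the cells were sorted as cones. Gnat1, the rod transducin alpha subunit, had 729, 666 and 789 FPKM. Pde6g, the inhibitory subunit of rod PDE6, had 718, 879 and 937 FPKM, and Sag, the rod arrestin, had 523, 680 and 855 FPKM. Catalytic subunits of rod PDE6 were far lower, with 36.6, 31.7 and 39.0 FPKM for Pde6a and a mean of 27.7 ± 7.06 FPKM (SD, n = 3) for Pde6b. The rod-determining factors were lower still: Nrl had 15.2, 21.4 and 28.3 FPKM and Nr2e3 had a mean of 6.01 ± 0.539 FPKM (SD, n = 3). All 14 rod genes in the table, of 15 listed, were above 5 FPKM in each library, 6 were at 100 FPKM or more, and together they held 3.07% ± 0.33 (SD, n = 3) of the summed FPKM.

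Within a library, where scaling between libraries plays no part, the ratio of the cone to the rod gene differed between steps of the cascade. Gngt2 had 4.78, 4.84 and 4.89 times the level of Gngt1 (164, 361 and 226 FPKM), the steadiest of the ratios. Gnb3 had 2.65, 2.21 and 2.40 times the level of Gnb1, which other cells use too. Pde6c had 5.05, 7.50 and 6.43 times the level of Pde6a.

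For other steps the cone gene was not clearly above the rod gene. Gnat2 had 0.985, 1.63 and 1.74 times the level of Gnat1, Arr3 had 1.06, 0.997 and 0.827 times that of Sag, and Cnga3 had 0.848, 1.23 and 1.35 times that of Cnga1, each on both sides of 1. The inhibitory subunits were reversed, with Pde6h at 0.290, 0.483 and 0.371 times Pde6g. Annotated exons sum to 7846 bp in Pde6h and 2317 bp in Pde6g, and to 2355 bp in Arr3 and 8904 bp in Sag. The lengths behind the FPKM are not stated, and their part in these ratios was not tested. Rod genes differed from each other by large factors: Gnat1 was 27.8 to 48.0 times Nrl, and Pde6g was 26.3 to 34.4 times Pde6b. In bulk samples, rod transcripts from rods or rod debris that were sorted along and rod transcripts made in cones cannot be told apart, nor can fewer cells of a type and less RNA per cell.

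**Figure D2:**
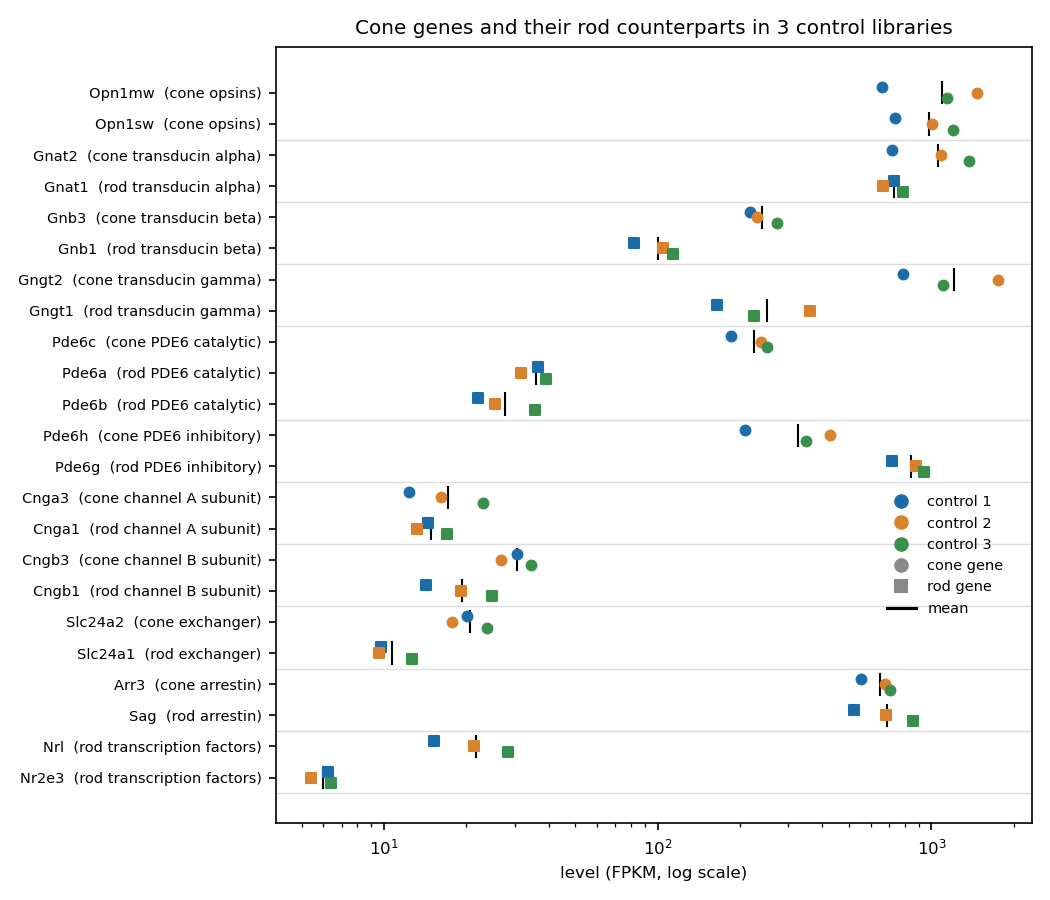
Level (FPKM, log scale) of cone genes (circles) and rod genes (squares), grouped by step of the cascade, in controls 1, 2 and 3, shown by colour, with the mean as a black line. The cone gene is above its rod counterpart in every library for Gngt2, Gnb3, Pde6c, Cngb3 and Slc24a2, while Pde6h is below Pde6g in every library and Gnat2, Cnga3 and Arr3 change sides.

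Markers of other retinal cells were much lower than those of photoreceptors. The summed level of the 5 cone markers was 2876 to 4778 FPKM. For Müller glia 6 of 8 listed markers were in the table and summed to 89.8, 109 and 117 FPKM, most of it from Car2 (54.3 FPKM), Clu and Glul (17.2 FPKM). For bipolar cells 7 of 8 were in the table and summed to 86.3, 82.8 and 116 FPKM, led by Otx2 (40.3 FPKM), which photoreceptors also express, and Lrtm1 (28.3 FPKM). Amacrine markers (2 of 7) summed to 8.98 to 11.2 FPKM. Ganglion cell markers (3 of 8) summed to 23.9 FPKM in control 1 and to 2.99 and 2.63 FPKM in the others, most of the difference being in Stmn2, which had 21.1, 0.195 and 0.668 FPKM. Pax6 was also highest in control 1, at 6.65, 0.684 and 2.22 FPKM. Control 1 is also the library lowest in most genes, and the part of other cells in its values was not tested. None of the markers of horizontal cells, pigment epithelium or astrocytes had a value here. The deposited table covers 9720 genes, so a marker without a value cannot be called absent from the cells, and the sums cover only markers with values. Pecam1, the vascular marker, averaged 0.689 FPKM, the microglial C1qb 0.656 FPKM and the red-cell gene Alas2 2.44 FPKM.

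The regulators of photoreceptor identity were found across a range of levels, and 15 of 16 listed factors were in the table. Crx, which drives photoreceptor genes, had 89.7, 96.9 and 135 FPKM, the highest of the list. Mef2d, a partner of CRX at photoreceptor genes, averaged 90.1 FPKM, Neurod1 51.7 FPKM, Otx2 40.3 FPKM and Casz1 30.1 FPKM. The nuclear receptors came next, with Rora at 23.8 FPKM and Thrb, the thyroid hormone receptor that patterns the cone opsins, at 15.9, 18.3 and 23.3 FPKM. Rxrg, the partner of Thrb in cones, was lower at 2.24, 3.90 and 5.51 FPKM, and Sall3 averaged 6.62 FPKM. The median of the list was 11.8 FPKM. Control 1 was lowest in 12 of 15 factors, and after scaling their median coefficient of variation (CV, the SD as a percent of the mean) fell from 22.9% to 9.80%.

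Outer segment genes formed the second highest class by median. Of 22 listed outer segment genes 21 were in the table, with a median of 70.1 FPKM and 8 at 100 FPKM or more. Cdhr1, a cadherin at the base of new discs, had 103, 176 and 210 FPKM. Tulp1, needed for transport into the outer segment, had 149, 147 and 163 FPKM, the lowest CV of all genes above 100 FPKM (5.76%). The disc-rim proteins Prph2 (130, 144 and 163 FPKM) and Rom1 (85.4, 118 and 106 FPKM) did not overlap between the 2 genes. Unc119, a carrier of lipid-modified transducin, averaged 143 FPKM and Aipl1, the chaperone of PDE6, 141 FPKM, while Rp2 was the lowest at 1.52 FPKM. In the connecting cilium Rpgrip1 stood out with 162, 133 and 205 FPKM, and the 15 other listed genes in the table were at 41.8 FPKM (Mak) or below. Retinoid handling was led by the carrier Rbp3 (416, 487 and 538 FPKM), the transporter Abca4 (84.4 FPKM) and the dehydrogenase Rdh12 (55.9 FPKM), with the rest at 10.2 FPKM or below.

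Genes of the ribbon synapse, from which cones release glutamate, were led by vesicle and fusion proteins. Of 42 listed genes 33 were in the table, with a median of 26.3 FPKM. Snap25, a SNARE protein of vesicle fusion, had 318, 345 and 445 FPKM, Syp, of the synaptic vesicle, 143, 250 and 296 FPKM, and Sv2b, also of the vesicle, 181, 188 and 204 FPKM. Cplx4, a complexin of photoreceptors, had 99.1, 152 and 216 FPKM, and Slc17a7, the vesicular glutamate transporter, 80.3, 106 and 118 FPKM. Stx3 averaged 100.3 FPKM. Below these lay the partners of the terminal's calcium channel and the ribbon scaffold, with medians of 23.7 and 22.9 FPKM against 49.96 FPKM for vesicle and fusion genes. Among the partners were Cabp4 at 34.7, 84.4 and 71.7 FPKM and Cacna2d4 at 38.9, 31.3 and 39.2 FPKM. The scaffold genes were led by Unc13b, a priming factor, at 43.2 FPKM, followed by others such as Rims2 at 26.8, 28.6 and 30.1 FPKM, Ctbp2 at 22.9 FPKM, Pclo at 12.7 FPKM and Bsn at 4.26 FPKM. Ctbp2 covers both the ribbon protein RIBEYE and the general corepressor, which a gene-level value does not separate.

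Energy metabolism supplied many of the other highest genes. Atp5b, the catalytic subunit of ATP synthase, had 467, 917 and 936 FPKM, far above the other 17 members of that class, of which Atp5g3 was next at 108 FPKM. In glycolysis 8 of 23 genes were at 100 FPKM or more: Gapdh had 322, 525 and 511 FPKM, Aldoa averaged 194 FPKM, Ldha 188 FPKM and Pgam1 182 FPKM. Hk2, the hexokinase characteristic of photoreceptors, averaged 149 FPKM, and Bsg, the receptor through which rods support cones, 122 FPKM. Cox8a led respiratory complex IV at 201 FPKM. The sodium pump subunit Atp1b2, which anchors retinoschisin at the photoreceptor membrane, had 430, 513 and 585 FPKM. Mt1, a metallothionein, had 353, 678 and 661 FPKM. None of the genes of the mitochondrial genome is among those analysed here, so the respiratory classes cover nuclear genes alone.

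The clock genes were far below the phototransduction genes but above the median of all genes. In the 23 of 27 listed genes that had values, the median was 6.53 FPKM against 3.87 FPKM for all genes, and the highest were Nr1d1 (38.3, 47.1 and 56.3 FPKM), a repressor of Arntl, and Tef (50.7, 34.1 and 37.5 FPKM), an output factor. Arntl ranged from 2.60 to 3.27 FPKM over the libraries, a mean of 2.96 ± 0.341 FPKM (SD, n = 3), in cells that keep at least 1 intact copy. Its partner Clock had 5.46 FPKM, Cry2 8.97 FPKM, Per3 10.1 FPKM, Per1 3.85 FPKM and Per2 1.92 FPKM. Dbp had 0.103, 1.12 and 0.947 FPKM, and Ciart 0.366, 2.00 and 2.25 FPKM, both lowest in control 1. Because the clock cycles and the hour of collection is not given, these are levels at an unstated time.

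Over the 8742 genes that averaged 1 FPKM or more, the median CV was 25.8% with quartiles of 17.0% and 37.2%, and after scaling it was 22.3%. A CV of at most 20% was found in 2925 genes (33.5%) as deposited and in 3866 (44.2%) after scaling, with 2224 in both. With 3 libraries a single CV is imprecise, so lists are described by their median and count. Of 45 classes with at least 8 members of 1 FPKM or more, 26 had a median CV under that of all genes as deposited and 29 after scaling.

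Among the steadiest classes were those of photoreceptor structure and output. Outer segment genes had a median CV of 17.5%, with 14 of 21 at or under 20%, and after scaling 7.87%, with 20 of 21. Ribbon synapse genes had 17.0%, with 22 of 33, and 12.4% after scaling, with 25 of 33. Rod genes had 17.8% (8 of 14), which became 12.7% (12 of 14). Cone phototransduction genes as a list were close to all genes at first, at 22.7% (10 of 22), and after scaling at 14.4% (16 of 22). Against genes of like level (10 equal groups by mean FPKM), the median outer segment gene was at percentile 27.3 of CV, and the median cytosolic ribosomal gene at percentile 78.3. Outer segment, ribbon synapse, circadian clock, endoplasmic reticulum folding and ubiquitin classes stayed below the median of all genes under each of the 9 settings run (the values as deposited, 2 scalings, 2 filters, each library left out and the scaling without control 1).

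The least steady classes among abundant genes were those of the mitochondrion and ribosome. Respiratory complex IV had a median CV of 35.3%, with 0 of 10 genes at or under 20%, and respiratory complexes II and III had 38.5%. ATP synthase had 34.1%, complex I 33.0% (8 of 36) and cytosolic ribosomal proteins 32.6% (17 of 80). Histones had 41.3%, with a low median level of 4.40 FPKM. Scaling moved these to 30.8% for complex IV, 30.4% for complex I and 31.8% for ribosomal proteins. Control 1 was below both others in 34 of 36 complex I genes, 10 of 10 complex IV genes, 33 of 34 proteasome genes and 66 of 80 ribosomal genes, against 54.9% of all genes. Median levels of ribosomal genes were 15.6, 27.7 and 22.1 FPKM in controls 1, 2 and 3, with Rps29 (63.5, 125 and 77.4 FPKM), Rpl41 and Rps15 the highest. Without control 1 a CV rests on 2 libraries, and the median over all genes was 16.5%. The median CV was then 17.1% for ribosomal genes, 13.3% for complex I, 9.97% for complexes II and III, 8.99% for glycolysis and 16.6% for histones. Complexes II and III, the least steady of the respiratory classes with all 3 libraries, were steadier than all genes in this setting. Complex IV remained at 28.3% and ATP synthase at 19.8%. Of the 9 settings this was the only 1 in which complexes II and III, or complex I, were below all genes. With median-ratio scaling and control 1 left out together, complexes II and III were above all genes, at 22.4%. Complex I (24.97%), ribosomal genes (28.7%) and histones (23.3%) were also above all genes there, while glycolysis (9.76%) was below. Ribosomal genes, ATP synthase, histones, Rab GTPases and the RNA polymerase II class were the 5 classes above all genes under each of the 9 settings. Ribosomal genes have many processed copies in the genome, and how reads shared with them were counted is not stated.

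**Figure D3:**
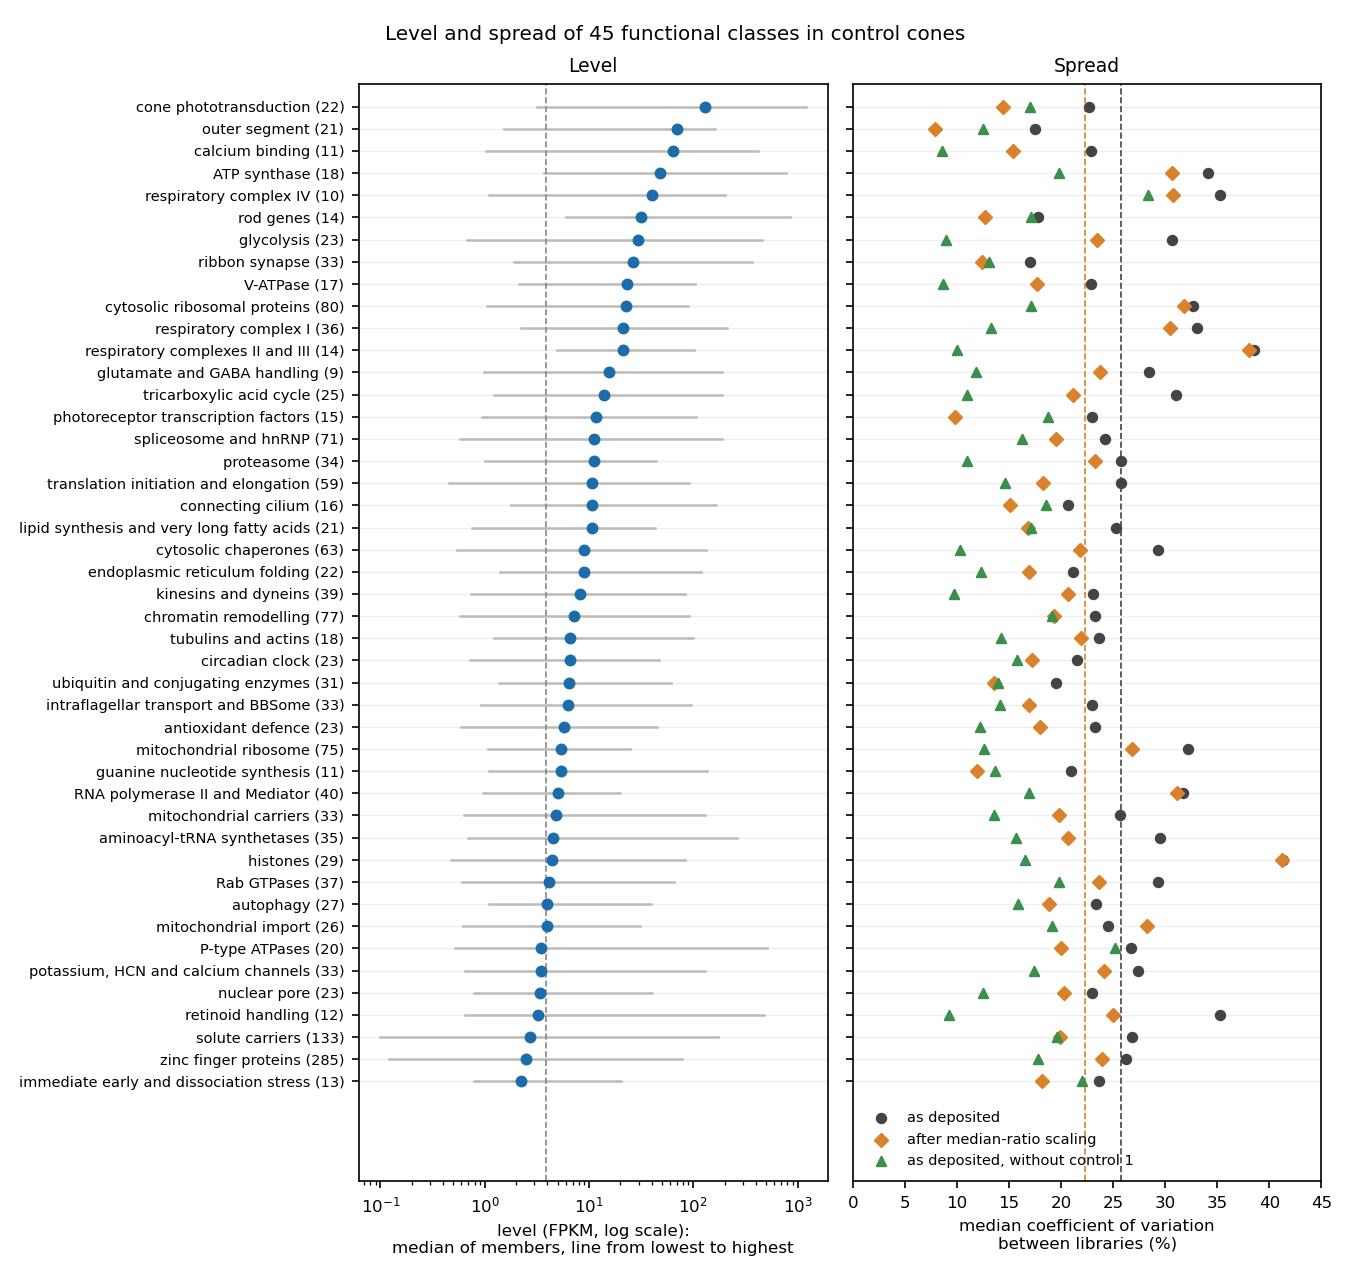
The 45 classes with at least 8 members of 1 FPKM or more, ordered by level: left, median level of the members (FPKM, log scale) with a line from the lowest to the highest member; right, median CV (percent) as deposited, after median-ratio scaling and without control 1, with dashed lines at the medians of all genes (3.87 FPKM, 25.8% as deposited and 22.3% after scaling). Cone phototransduction is highest in level at 129 FPKM, outer segment genes are second at 70.1 FPKM with a CV of 17.5%, and histones have the largest CV at 41.3%.

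These classes also differ in gene length, and the differences between libraries moved with it. Genes were put in 10 equal groups by the summed length of their exons. In the shortest group (median 1340 bp), the median log2 ratio of control 1 to the mean of controls 2 and 3 was -0.57, and in the longest (median 13327 bp) it was -0.02; over all genes it was -0.24. The ratio of control 2 to control 3 moved the other way, from 0.02 in the shortest to -0.33 in the longest group. Spearman's rank correlation with exon length over 8730 genes was 0.27 and -0.29, given as a description, since the genes share libraries. The CV after scaling fell from 33.0% in the shortest group to 19.4% in the longest. Median exon length was 1119.5 bp in complex IV, 1532 bp in complex I and 1754.5 bp in ribosomal proteins, against 5141 bp in outer segment genes and 6121 bp in ribbon synapse genes. The part of length in the steadiness of these classes was not tested.

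**Figure D4:**
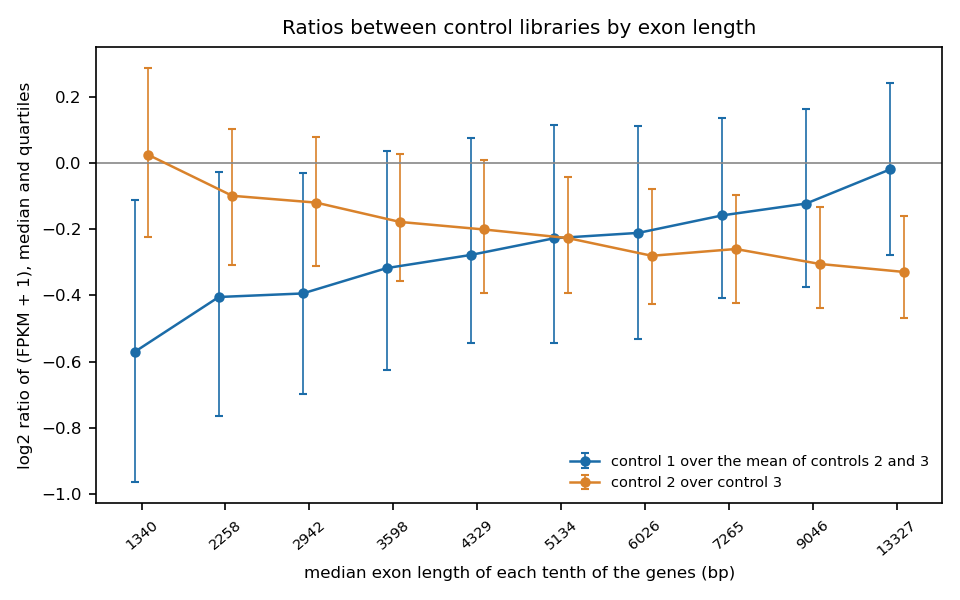
Median log2 ratio of (FPKM + 1) between control libraries, with quartiles as bars, in 10 equal groups of genes ordered by exon length (bp). The ratio of control 1 to controls 2 and 3 rises from -0.57 to -0.02 from the shortest to the longest group, and that of control 2 to control 3 falls from 0.02 to -0.33.

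Among single genes of at least 100 FPKM the steadiest as deposited were Tulp1, Sv2b (CV 6.10%), Atp6v1a (7.18%, a subunit of the vesicular proton pump), Gnat1 (8.44%), Vamp2 (10.7%), Prph2 (11.4%), Oaz1, Gnb3, Arr3 and Rbp3. After scaling the 10 included Rtbdn, Snap25, Reep6, Mpp4, Gnb3, Prph2, Atp1b2, Ddx5 and Vamp2, and 3 genes were in both lists. Rtbdn, a riboflavin-binding protein of photoreceptors, had 258, 288 and 348 FPKM as deposited, a CV of 15.3%, and 0.352% after scaling. Between 10 and 100 FPKM the smallest deposited CV was that of Zfp462 (23.4, 23.2 and 23.5 FPKM, 0.531%), which was 14.1% after scaling. In that range 0 of the 10 steadiest genes were shared between the scalings.

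Of the 12 most variable genes of at least 10 FPKM, 7 were gene models of under 200 bp of exons or had a library at the floor of 0.1 FPKM. Gm17364, the highest gene of the table, has 72 bp of exons (chromosome 13, 41273803 to 41273977) that lie within exons of Smim13 on the other strand. Its values were 428, 2616 and 12911 FPKM, so its mean of 5318 FPKM becomes 1522 FPKM without control 3, and in control 3 it alone held 10.03% of the summed FPKM. Gm11032 (102 bp of exons) had 1266, 513 and 1500 FPKM. Gm17604 (75 bp) had 0.1, 0.1 and 787 FPKM, and Gm26741 (87 bp, within Gopc) had 0.1, 0.1 and 419 FPKM. In all, 16 models had under 200 bp of exons and together held 6.45% of the summed FPKM. Without them the 100 highest genes held 26.2% and 99 genes were at 100 FPKM or more. Gm20594 (449 bp), with 643, 1793 and 938 FPKM, and Gm4076, which the annotation lists as a processed pseudogene, with 441, 561 and 462 FPKM, are longer predicted genes in the 25 highest.

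Genes with ordinary lengths also differed by single libraries. Trip12, a ubiquitin ligase, had 30.7, 0.1 and 0.1 FPKM. Zbtb18, a transcriptional repressor, had 8.68, 56.3 and 9.38 FPKM, the opposite case in which control 2 stood apart. Zfp579, a zinc finger gene, had 46.5, 6.50 and 10.1 FPKM, Mark2, a microtubule-affinity kinase, 37.4, 5.68 and 7.68 FPKM, and Nrxn3, a presynaptic adhesion protein, 39.6, 6.98 and 11.2 FPKM, all highest in control 1. Fam169a had 33.2, 35.2 and 0.1 FPKM, and Nsa2, whose exons overlap its own by 1590 bp on the other strand, had 10.6, 10.8 and 0.1 FPKM. Of the genes of at least 10 FPKM, 28 differed by at least 4 times between their highest and lowest library.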

How the data were processed

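RNA of eGFP-sorted mouse cones was sequenced after poly(A) selection as paired-end, strand-directional libraries, per the labels' protocols. FPKM values are as the authors deposited them, in 1 column per library, and their lowest value is 0.1. Build mm10 and the tools DESeq2, HTSeq, TopHat2 2.1.0 and Cufflinks 2.2.1 are listed in the submitters' processing notes with no role for each. The step that gave the FPKM, its annotation and its use of strand are not stated. Depth is unknown, and precision rests on the spread over the libraries, with no counting interval.

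Libraries were grouped by the genotype labels. With 1 group of 3 there is no test: means, SDs (n - 1) and CVs were computed in Python 3.11.15 with pandas 2.3.3 and numpy 2.4.6, and plotted with matplotlib 3.10.9. CVs used genes of at least 1 FPKM. Gene IDs were matched to GENCODE vM21 (9702 of 9720), which gave positions and exon lengths; 15 symbols stored as dates were restored by ID. Upstream sequences are from RefSeq. Scripts were tested on simulated data. The named genes were the 25 highest, the 10 steadiest of 2 level ranges, the 12 most variable, the members of photoreceptor lists, up to 4 highest and the lowest of other lists, the markers and the genes nearest a threshold; others (Stmn2, Pax6, Nsa2, Hk2, Bsg and clock genes below the 4 highest) were chosen after their values were seen. Members and lists were chosen with earlier results of these data known. Alternatives were 2 scalings, filters, the median, log-scale spread, and each library left out. 2 more were added after seeing the data: leaving out short gene models, and scaling without control 1. Some genes that the rule would name are not reported here.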

Additional observations from a re-analysis of the deposited data

How the results depend on the processing

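No paired analysis was possible because only the control libraries were described, no contrast with the knockout libraries was made and no result comes from a test. The count of genes of at least 100 FPKM was 103 as deposited, 102 at a common sum, 99 after median-ratio scaling, 104 by the median of the libraries and 88 to 117 with 1 library left out. The share of the 100 highest was 30.5%, 28.0% to 32.6% with 1 library left out and 27.0% without Gm17364. The median CV was 25.8%, and 16.5% to 26.2% with 1 library left out, 16.5% being without control 1, which held the lowest correlations with the others; with scaling and control 1 left out together it was 12.2%. The count of genes with a CV of at most 20% was 2925, 1617 with a filter of 5 FPKM (fewer genes tested), 3359 to 5209 with 1 library left out (5209 without control 1) and 6116 with scaling and without control 1. With 1 library left out a CV rests on 2 values, and this count rose whichever library was left out. Such CVs and counts are therefore not on the same scale as those from 3 libraries. The part of this in the shifts, also in those of single classes below, was not tested. Classes with a median CV below that of all genes numbered 26, and 20 to 27 with 1 library left out. The median CV of single classes moved by more than the spread over left-out libraries in 36 of 45 classes without control 1, in 18 after median-ratio scaling and in 6 with a filter of 5 FPKM. Among the 25 highest genes, Gm17364 was the only 1 whose mean moved by over 1.5 times under the scalings or with a library left out, from 5318 FPKM to 1522 FPKM without control 3. These causes were not tested. The unknown depth limits what can be said of genes near the floor of 0.1 FPKM, where 280 genes had a library.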

Other observations

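Channel and transporter genes of the control cones have not been described above. Among 33 genes of potassium, HCN and calcium channels with values, the median was low, and the highest was Kcne2, an accessory potassium channel subunit, with 81.5, 129 and 179 FPKM in controls 1, 2 and 3. Kcnv2, a modifying potassium channel subunit of photoreceptors, had 29.8, 29.3 and 38.5 FPKM. Control 3 was highest for both genes. Of the solute carriers, the taurine transporter Slc6a6 had 152, 153 and 208 FPKM and the glutamate transporter Slc1a2 had 151, 145 and 202 FPKM.

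Genes that respond within minutes to stress, including that of tissue dissociation, were low. Of 23 listed genes 13 had values, with a median of 2.21 FPKM. The highest was Ier3, an early stress response gene, with 12.6, 25.3 and 22.6 FPKM. Egr1, an early growth response factor, had 9.83, 7.88 and 12.1 FPKM, and Fos, a subunit of the AP-1 factor, had 1.07, 0.468 and 0.844 FPKM. The summed level of the list was 47.2, 59.0 and 66.8 FPKM in controls 1, 2 and 3, in the same order as the sums over the whole table.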
